A study of Mus musculus with 12 samples.

Results

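The transcripts of 9 genes that bind vitamin A or convert it were followed in mouse iWAT, a subcutaneous depot of the groin where beige adipocytes appear upon cold exposure. The genes were taken by symbol from the deposited count table and were Rbp4, Stra6, Aldh1a1, Aldh1a2, Aldh1a3, Rdh10, Dhrs3, Cyp26b1 and Rarb. They are 9 of the 23420 genes listed, and each of the 9 was among the 15306 genes kept by the filter on low counts. The study compared 4 groups of 3 male C57BL/6 mice at 10 weeks of age. All mice were HIF2a loxP/loxP, and Adipoq-Cre was present in HIF2α AKO mice and absent from WT mice. The TN groups were kept at 30 °C for 1 week and the cold groups at 4 to 6 °C for 3 days. The promoter of the Adiponectin gene drives this Cre in adipocytes in general and not in beige adipocytes alone, and Cre was present only together with the deletion. Whole tissue was sequenced, so that fewer cells of a type and less RNA per cell cannot be told apart in any value given here.

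Vitamin A travels in blood as retinol on the carrier RBP4, which the liver and adipocytes secrete. STRA6 is a membrane receptor that takes retinol up from this carrier. Inside the cell, RDH10 oxidizes retinol to retinaldehyde, DHRS3 reduces retinaldehyde back to retinol, and the retinaldehyde dehydrogenases of the ALDH1A family turn retinaldehyde irreversibly into retinoic acid. Retinoic acid acts through the nuclear receptors RAR and RXR, among them RARβ, and enzymes of the CYP26 family clear it. In adipose tissue, retinaldehyde and retinoic acid are both known to act on adipocyte differentiation and on thermogenic genes.

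The libraries held between 22368316 and 35204631 counts on genes, and levels are given as CPM, counts scaled by library size and TMM factor. Ucp1, which encodes the uncoupling protein of thermogenic fat, lay between 0.2 and 3.9 CPM in the TN libraries and between 2171 and 5897 CPM in the cold libraries. Adipoq, the defining adipocyte gene, lay between 899 and 2467 CPM in the 12 libraries. Epas1, which encodes HIF2α, lay between 278 and 430 CPM in TN WT, between 289 and 394 CPM in TN HIF2α AKO, between 562 and 743 CPM in cold WT and between 743 and 986 CPM in cold HIF2α AKO. Libraries labelled HIF2α AKO thus held no less of the targeted transcript in cold, and counts over a whole gene do not separate its exons. Genotypes are given as labelled for this reason. The paper itself reported lower mRNA of this gene, named Hif2a there, in iWAT of HIF2α AKO mice. The summed markers of skeletal muscle reached 1285 CPM in TN HIF2α AKO 2 and 985 CPM in cold HIF2α AKO 1 against at most 77.9 CPM elsewhere, and those of epithelium reached 200 CPM in TN WT 3 against at most 10.3 CPM elsewhere.

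Per kilobase of exon, the 9 genes spanned a wide range of levels. Rbp4 was highest at a mean of 110.6 CPM per kb over the 12 libraries, with Dhrs3 next at 43.0 CPM per kb. Aldh1a1 followed at 11.3 CPM per kb, Cyp26b1 at 5.16, Rdh10 at 3.88 and Aldh1a3 at 2.96 CPM per kb. Aldh1a2 at 1.19, Rarb at 0.948 and Stra6 at 0.414 CPM per kb were the lowest. The ranges over libraries separated Dhrs3 (23.7 to 62.7 CPM per kb) from Aldh1a1 (4.92 to 21.6 CPM per kb), and each other pair of neighbours in this order overlapped. Exon lengths came from GENCODE M21, which may differ from the annotation used for counting. They join the exons of all transcripts annotated for a gene, which can be longer than the transcript present. The plot of the members by library shows all values on the CPM scale.

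**Figure D1:**
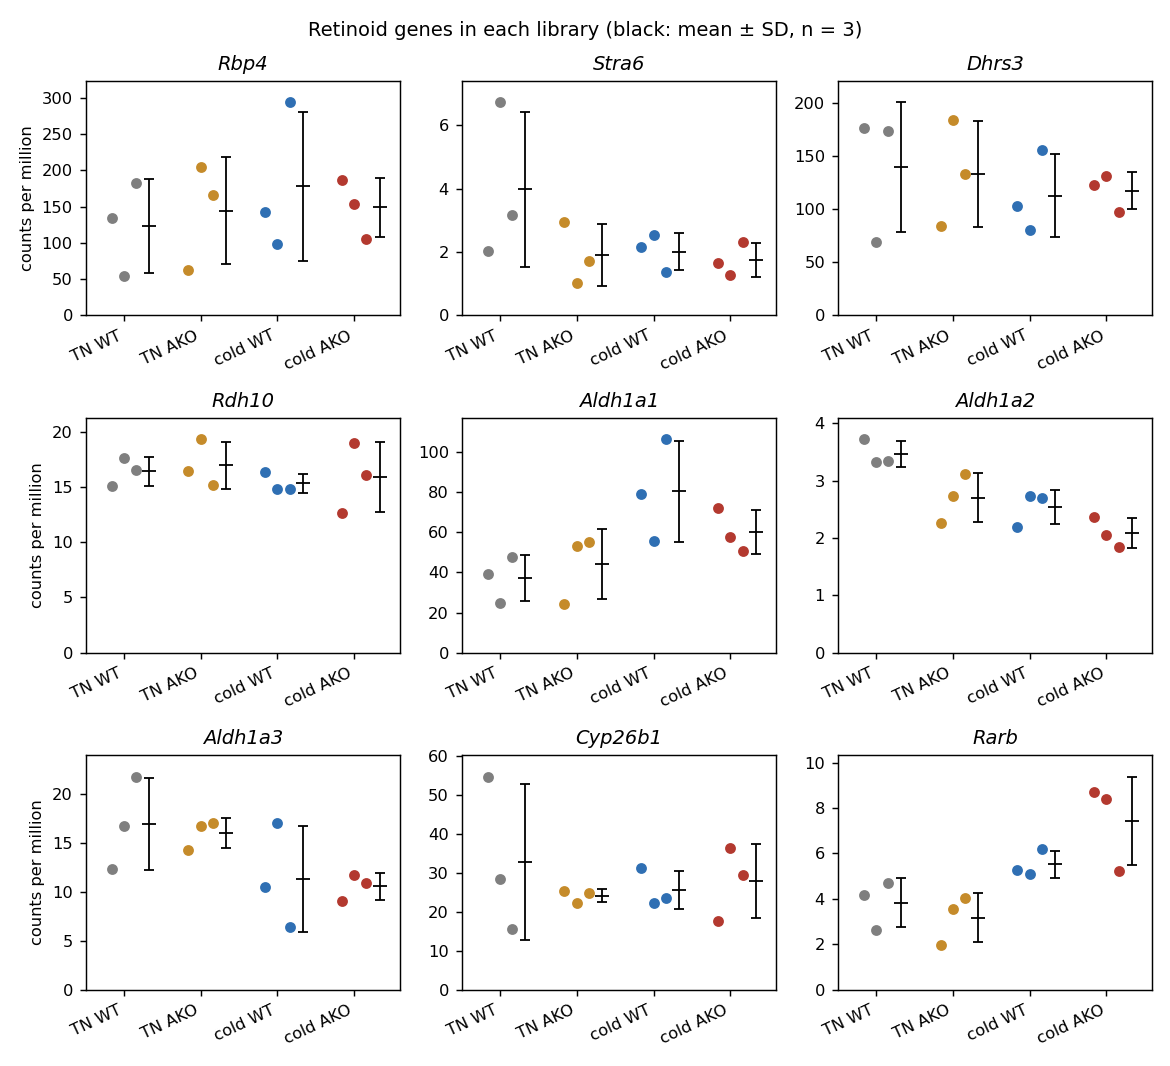
Each panel plots 1 gene, with CPM on the vertical axis from 0 and the 4 groups on the horizontal axis. Coloured points are single libraries in replicate order, and the black mark with bars is the mean ± SD of 3 libraries. Rarb lay above 5 CPM in the 6 cold libraries and below 5 CPM in the 6 TN libraries, and Rbp4, Dhrs3 and Cyp26b1 varied widely within groups.

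The first comparison sets cold against TN in each genotype. No group stayed at the usual housing temperature, and the 2 exposures differed in length. A rise in cold thus cannot be told apart from a fall at TN. Here and below, rose and fell mean cold relative to TN. In WT mice, 1 of 9 members, Aldh1a1, was called higher and 0 were called lower. Of the 15306 genes tested, 15.6% were called higher and 5.68% lower. In HIF2α AKO mice, Rarb was called higher, again 1 of 9, and 0 were called lower. Of all genes, 15.6% were called higher and 11.5% lower. Over both genotypes, that is for the mean of the 2 within-genotype effects, 4 of 9 members were called. Aldh1a1 and Rarb rose and Aldh1a2 and Aldh1a3 fell, where 24.8% of all genes were called higher and 24% lower. The share of members called was therefore not above the background of a response that reached nearly 1 gene in 2. A gene is called where its p-value from edgeR's quasi-likelihood test, adjusted over all genes tested after Benjamini and Hochberg, lies under 0.05. The median log2 fold change over both genotypes was -0.09 for the 9 members and -0.05 for all genes. With library size as the sole scaling, all genes moved by a median of -0.33 and the calls over both genotypes split into 2102 higher and 7653 lower instead of 3798 and 3669, while the same 4 members kept their calls and directions and Rdh10 joined those called lower.

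**Figure D2:**
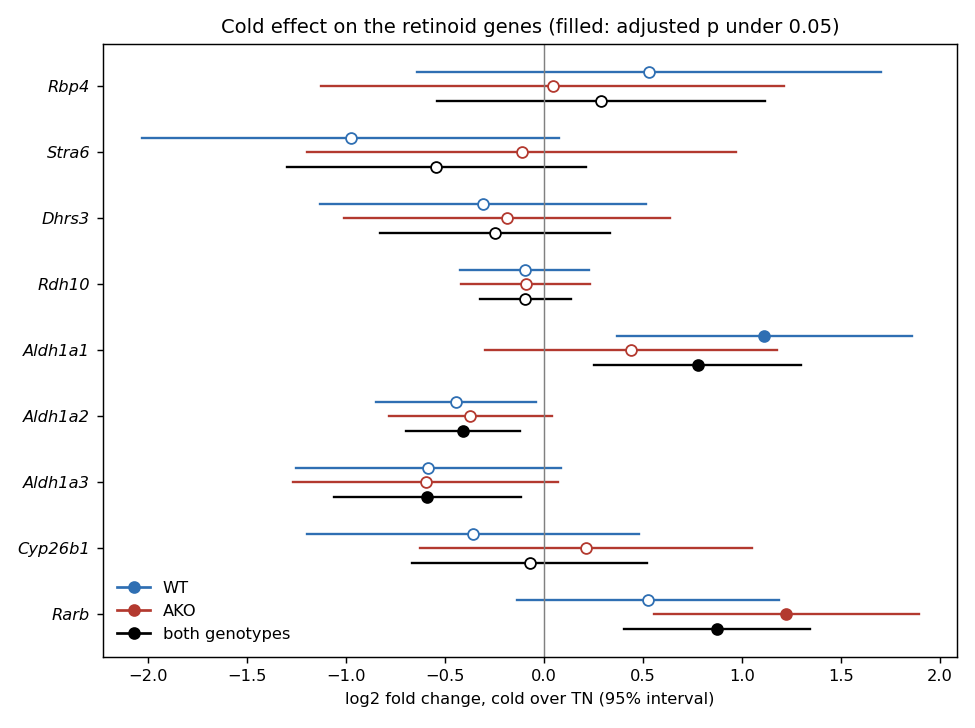
The horizontal axis gives the log2 fold change of cold over TN with its 95% interval for each of the 9 genes, in WT (blue), in HIF2α AKO (red) and over both genotypes (black). Filled circles mark an adjusted p under 0.05: Aldh1a1 in WT at 1.11, Rarb in HIF2α AKO at 1.22, and Aldh1a1, Rarb, Aldh1a2 and Aldh1a3 over both genotypes.

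Rbp4 (chr19:38116629-38125281, minus strand, GRCm38), the retinol carrier, did not pass the test in any comparison. Its level was 134, 53.9 and 182 CPM in TN WT and 142, 98.3 and 293 CPM in cold WT. In HIF2α AKO mice it was 62.1, 205 and 166 CPM at TN and 187, 154 and 105 CPM in cold. The groups overlapped in both genotypes, and the library cold WT 3 stood highest of the 12. The cold effect on Rbp4 was 0.53 on the log2 scale in WT with a 95% interval from -0.64 to 1.70, and 0.04 in HIF2α AKO with an interval from -1.13 to 1.21. Without cold WT 3, the value in WT was -0.03. Both intervals include changes above 2-fold, which could not be detected with 3 mice per group and this spread.

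Stra6 (chr9:58063788-58153996, plus strand), the retinol receptor, was the scarcest member, with 32 to 196 reads per library. TN WT libraries held 2.04, 6.72 and 3.17 CPM and TN HIF2α AKO libraries 2.96, 1.04 and 1.73 CPM. In cold the values were 2.15, 2.52 and 1.37 CPM in WT and 1.65, 1.29 and 2.32 CPM in HIF2α AKO. A single library, TN WT 2, stood more than 2-fold above the 11 others. The cold effect was -0.98 ± 0.48 (SE) in WT and -0.11 ± 0.49 in HIF2α AKO on the log2 scale, with adjusted p-values of 0.153 and 0.876 in edgeR's quasi-likelihood test. Without TN WT 2, the WT value was -0.38.

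The enzymes that move between retinol and retinaldehyde did not pass the test either. Rdh10 (chr1:16105774-16133734, plus strand) was the steadiest member. It lay between 15.1 and 17.6 CPM in TN WT, between 15.2 and 19.3 CPM in TN HIF2α AKO, between 14.8 and 16.3 CPM in cold WT and between 12.6 and 18.9 CPM in cold HIF2α AKO. Its cold effect over both genotypes was -0.09 on the log2 scale with a 95% interval from -0.33 to 0.14. Dhrs3 (chr4:144892827-144928209, plus strand), which works in the opposite direction, was far more variable. Its level was 177, 69.4 and 173 CPM in TN WT, 83.8, 184 and 133 CPM in TN HIF2α AKO, 103, 80.3 and 156 CPM in cold WT and 123, 131 and 97.6 CPM in cold HIF2α AKO. All 4 groups overlapped, and the cold effect over both genotypes was -0.25 on the log2 scale with an interval from -0.83 to 0.33.

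Of the retinaldehyde dehydrogenases, Aldh1a1 (chr19:20492715-20643465, plus strand) rose over both genotypes upon cold exposure. Aldh1a2 (chr9:71215789-71296243, plus strand) and Aldh1a3 (chr7:66390890-66427517, minus strand) fell, but the call of Aldh1a3 was lost in 10 of 12 fits that left out 1 library and that of Aldh1a2 in 5 of 12. Aldh1a1 held 39.1, 24.8 and 47.8 CPM in TN WT against 79.3, 55.9 and 106 CPM in cold WT, so that each cold library lay above each TN library. How many of all genes separated within a genotype was not counted, here or for Aldh1a2 and Aldh1a3 below. In HIF2α AKO mice, the values were 24.3, 53.2 and 55.4 CPM at TN and 72.0, 57.8 and 50.6 CPM in cold, and the groups overlapped. The cold effect was 1.11 ± 0.34 (SE) on the log2 scale in WT, or 2.16-fold, with an adjusted p of 0.0397 in edgeR's quasi-likelihood test. In HIF2α AKO it was 0.44 ± 0.34 with an adjusted p of 0.336 in the same test, and over both genotypes 0.78 ± 0.24 with an adjusted p of 0.0207. The difference between the genotypes' cold effects was -0.67 with a 95% interval from -1.72 to 0.37, and its adjusted p was 1.00 in the edgeR model, so that the response of Aldh1a1 was not shown to differ between genotypes. The WT call lay near the threshold, with adjusted p = 0.0519 under a replicate block, 0.157 without cold WT 3 and 0.142 without TN WT 2.

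Aldh1a7, a close paralog of Aldh1a1 that lies beside it on chromosome 19 (20692953 to 20727562, minus strand), was examined after the values of Aldh1a1 were seen. It held between 37.1 and 121 CPM in TN WT, 35.6 and 118 CPM in TN HIF2α AKO, 127 and 308 CPM in cold WT and 159 and 208 CPM in cold HIF2α AKO. Its cold effect over both genotypes was 1.15 ± 0.36 on the log2 scale, with an adjusted p of 0.0234 in edgeR's quasi-likelihood test. Reads that match both paralogs cannot be assigned to either, so that the split between Aldh1a1 and Aldh1a7 is uncertain.

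Aldh1a2 held 3.72, 3.32 and 3.34 CPM in TN WT and 2.19, 2.73 and 2.70 CPM in cold WT, with no overlap. In HIF2α AKO mice it held 2.26, 2.73 and 3.11 CPM at TN and 2.37, 2.05 and 1.84 CPM in cold, with 1 cold library inside the TN range. Its change over both genotypes was -0.41 ± 0.13 (SE) on the log2 scale with an adjusted p of 0.0248 in edgeR's quasi-likelihood test, at 46 to 146 reads per library. Aldh1a3 held 12.4, 16.7 and 21.7 CPM in TN WT and 10.5, 17.0 and 6.36 CPM in cold WT, which overlapped. In HIF2α AKO mice the 14.2, 16.7 and 17.0 CPM at TN lay above the 9.01, 11.7 and 10.9 CPM in cold. Its change over both genotypes was -0.59 ± 0.21 with an adjusted p of 0.0409 in the same test, and the highest TN value came from TN WT 3, the library with epithelial transcripts. The call of Aldh1a3 was kept without cold WT 2 or TN WT 1 and lost without any other single library, at adjusted p-values up to 0.0904 in edgeR, and it was also lost with limma voom, at -0.36 with an adjusted p of 0.0849. That of Aldh1a2 was lost without cold HIF2α AKO 2 or 3, cold WT 1, TN HIF2α AKO 3 or TN WT 1, at adjusted p-values up to 0.0651 in edgeR. Without the 3 libraries that held muscle or epithelial transcripts, a setting chosen after seeing the data, the changes were -0.47 for Aldh1a2 with an adjusted p of 0.0532 and -0.41 for Aldh1a3 with an adjusted p of 0.212 in the edgeR fit. The part of these cells in the result was not tested.

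Taken per kilobase and as shares of the sum of the 3 isozymes, these levels can be set side by side within each library, free of any scaling between libraries. Aldh1a1 made up 58.5% ± 7.87 (SD, n = 3) of the sum in TN WT and 64.2% ± 8.27 in TN HIF2α AKO. In cold, its share was 80.8% ± 9.97 in WT and 78.8% ± 3.57 in HIF2α AKO. The share of Aldh1a3 was 29.1% ± 7.01 in TN WT, 26.7% ± 6.54 in TN HIF2α AKO, 13.4% ± 8.61 in cold WT and 15.2% ± 3.53 in cold HIF2α AKO. Aldh1a2 gave the rest. The highest Aldh1a1 share at TN was 69.1% and the lowest in cold 69.8%, so that the ranges at the 2 temperatures met without overlap. The joined exon lengths were 4937 bases for Aldh1a1, 2264 for Aldh1a2 and 4617 for Aldh1a3, and other lengths would shift the size of each share. Aldh1a7 was left out of the sum. Its mean was 37.5 CPM per kb in TN WT and 91.4 in cold WT, against 7.54 and 16.3 CPM per kb for Aldh1a1. The uncertain split of reads between these paralogs therefore also bears on the shares of Aldh1a1. These shares describe transcripts and carry no test.

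**Figure D3:**
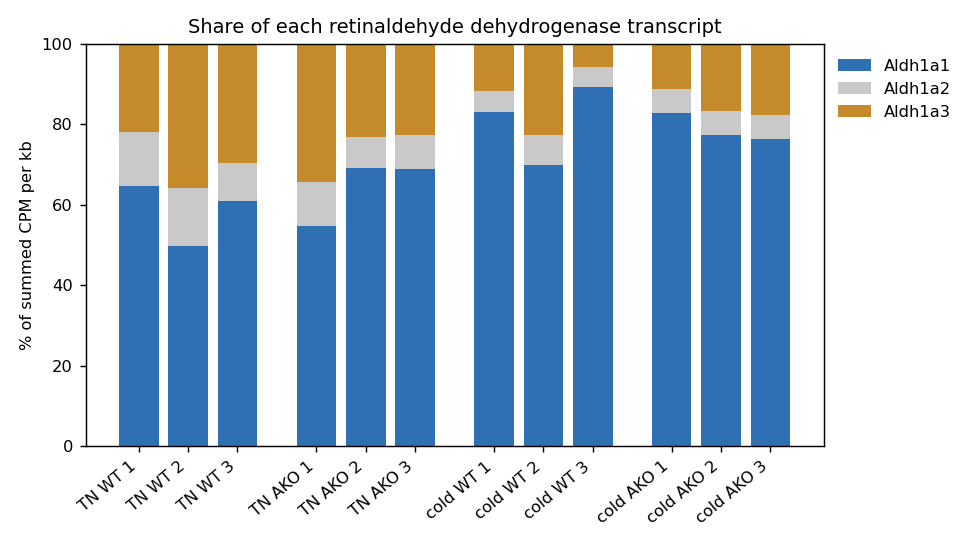
Each bar is 1 library, and its segments give the percentage of the summed Aldh1a1, Aldh1a2 and Aldh1a3 level (CPM per kb of exon) that each gene contributed. The Aldh1a1 segment ran from 49.6 to 69.1% in the 6 TN libraries and from 69.8 to 89.4% in the 6 cold libraries. The paralog Aldh1a7 is not part of the sum.

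Because HIF2α was the targeted factor, the promoters of the members were searched for ACGTG, the core letters of the hypoxia response element, on both strands. RefSeq windows of GRCm38.p6, from 250 bases before to 50 bases after an annotated start, were at hand for 7 of the 9 genes and 14 starts. The letters stood in windows of 2 of these 7 genes, Rbp4 and Aldh1a2, against 5886 of all 27025 genes, or 21.8%, and 19.6% of all 32851 promoter windows. Aldh1a2 is shown because it is the member whose WT and HIF2α AKO libraries did not overlap at TN. How many of all genes separated in this way was not counted. Its genotype effect at TN had an adjusted p of 0.999 in edgeR's quasi-likelihood test. The 150 bases before its start (chr9:71215639-71215788, plus strand) are printed with the match in capitals, which reads CACGT on this strand and ACGTG on the other.
Aldh1a2: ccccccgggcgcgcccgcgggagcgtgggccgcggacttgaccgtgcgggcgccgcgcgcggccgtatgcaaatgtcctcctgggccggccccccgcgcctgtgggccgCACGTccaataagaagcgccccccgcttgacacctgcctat

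Cyp26b1 (chr6:84571414-84593908, minus strand), the hydroxylase that clears retinoic acid, showed no change that passed the test. It held 54.7, 28.4 and 15.5 CPM in TN WT, the widest spread of the 4 groups, and 25.4, 22.2 and 24.7 CPM in TN HIF2α AKO. In cold it held 31.3, 22.3 and 23.5 CPM in WT and 17.6, 36.4 and 29.5 CPM in HIF2α AKO. The groups overlapped throughout. The cold effect over both genotypes was -0.07 on the log2 scale with a 95% interval from -0.67 to 0.52, and it was 0.22 without TN WT 1. The related hydroxylases Cyp26a1 and Cyp26c1 did not pass the filter on low counts.

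Rarb (chr14:16430839-16819156, minus strand), the retinoic acid receptor β and a known target of retinoic acid itself, rose upon cold exposure. TN WT libraries held 4.15, 2.64 and 4.71 CPM and cold WT libraries 5.28, 5.08 and 6.19 CPM. TN HIF2α AKO libraries held 1.95, 3.55 and 4.03 CPM and cold HIF2α AKO libraries 8.72, 8.40 and 5.21 CPM. Each of the 6 cold libraries lay above each of the 6 TN libraries, at 50 to 209 reads per library. How many of all genes separated the 2 temperatures in this way was not counted. The cold effect was 0.52 ± 0.30 (SE) on the log2 scale in WT, with an adjusted p of 0.213 in edgeR's quasi-likelihood test. In HIF2α AKO it was 1.22 ± 0.30, or 2.33-fold, with an adjusted p of 0.0156, and over both genotypes 0.87 ± 0.21 with an adjusted p of 0.00736 in the same test. The difference between the 2 cold effects was 0.70 with an interval from -0.24 to 1.63 and an adjusted p of 1.00 in that model, so that Rarb was not shown to respond differently in the 2 genotypes. The call in HIF2α AKO was lost without cold HIF2α AKO 1, a library with muscle transcripts, at 1.095 with adjusted p = 0.0668, and without TN HIF2α AKO 1 at 0.97 with adjusted p = 0.0566. Retinoic acid itself was not measured. Among 6 further tested genes known to respond to it, 1 was called higher and 1 lower over both genotypes. Of all genes, 24.8% were called higher and 24% lower.

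Rarb shares 1793 exonic bases, 34.1% of its exonic length in GENCODE M21, with the gene Top2b on the opposite strand. The strand setting of the counting is not given in the sources used here, so that reads of the shared bases cannot be told apart. Top2b, looked at for this reason after the values of Rarb were seen, encodes topoisomerase IIβ and moved the other way, from 147 to 190 CPM in TN WT and 144 to 165 CPM in TN HIF2α AKO to 122 to 144 CPM in cold WT and 116 to 134 CPM in cold HIF2α AKO. Its change over both genotypes was -0.32 ± 0.08 (SE) on the log2 scale with an adjusted p of 0.00832 in edgeR's quasi-likelihood test.

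Retinoic acid receptors bind direct repeats of a short core site, and Rarb is known for such an element in its own promoter. The promoter windows of the 7 matched members were searched on both strands for 2 such core sites spaced by 5 bases (DR5), 2 bases (DR2) or 1 base (DR1). A DR5 was found at 1 of the 7 members, Rarb, against 0.115% of the 27025 genes and 0.0974% of the 32851 windows. Its first base lay 53 and its last base 37 bases before the annotated start (chr14:16575513-16575529). DR2 and DR1 were found at none of the 7 members, against 0.311% and 0.263% of all genes. The 150 bases before the Rarb start (chr14:16575477-16575626, minus strand, RefSeq, GRCm38.p6) are shown because Rarb is the member that separated the temperatures, with the DR5 in capitals. A match describes letters and was not tested for binding, and RefSeq places this start inside the span of the gene.
Rarb: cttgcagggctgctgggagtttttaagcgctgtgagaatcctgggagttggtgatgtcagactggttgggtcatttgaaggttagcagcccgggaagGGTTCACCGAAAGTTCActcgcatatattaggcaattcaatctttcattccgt

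The second comparison asks whether the loss of HIF2α changed these genes at either temperature. No member was called by genotype. At TN, 0 of 9 members passed edgeR's quasi-likelihood test, where 0.00653% of all genes were called higher and 0% lower. In cold, 0 of 9 passed, against the same 0.00653% and 0%. Averaged over both temperatures, the shares were again 0 of 9 members and 0.00653% and 0% of all genes. For the interaction of genotype and temperature they were 0 of 9 members and 0% of all genes in either direction. DESeq2 and limma voom also called none of the 9 by genotype or interaction. With 1 gene or none called among 15306, these counts say little about the members.

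At an unadjusted p under 0.05, 1 member passed at TN, where 2.91% of all genes did, and 1 over both temperatures, where 3.64% did. In cold and for the interaction, 0 members passed, where 2.95% and 2.14% of all genes did. At TN the effects ran from -1.06 ± 0.48 (SE) for Stra6 to 0.25 ± 0.34 for Aldh1a1 on the log2 scale. The value of Stra6 had an adjusted p of 0.999 in the edgeR model and was -0.45 without TN WT 2, the library that stands above the others. In cold the effects ran from -0.42 ± 0.33 for Aldh1a1 to 0.43 ± 0.30 for Rarb. Over both temperatures, Aldh1a2 was at -0.32 ± 0.13 with a 95% interval from -0.61 to -0.03. At TN its 3 HIF2α AKO libraries, at most 3.11 CPM, lay below its 3 WT libraries, at least 3.32 CPM, whereas in cold the genotypes overlapped between 1.84 and 2.73 CPM. Its adjusted p was 1.00 in the edgeR model. At the thresholds of the study, which ask for p below 0.15 before adjustment and a log2 fold change beyond 0.2 either way, DESeq2 on the 6 cold libraries alone picked Aldh1a1 and Rarb among 923 higher and 592 lower genes, 8.04% of those tested. The edgeR model of 12 libraries picked 0 members among 725 higher and 649 lower genes, 8.98% of those tested.

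Several members moved with the summed level of white adipocyte markers in a library. The 6 white adipocyte markers (Adipoq, Plin1, Cidec, Lep, Fabp4 and Retn) summed to between 4195 and 10514 CPM in TN WT, 6246 and 11500 CPM in TN HIF2α AKO, 14098 and 27758 CPM in cold WT, and 17321 and 21218 CPM in cold HIF2α AKO. None of the 6 markers was at 0 in any library. In cold over both genotypes, edgeR called 4 of 6 higher, where 24.8% of all genes were. In WT it called 3 of 6 and in HIF2α AKO 1 of 6, where 15.6% of all genes were in each. Fabp4 was the largest part of the sum, with means of 3782 CPM in TN WT and 12550 CPM in cold WT. Adipoq had means of 1582 CPM in TN HIF2α AKO and 1571 CPM in cold HIF2α AKO, and 1349 and 1820 CPM in WT. The sum is thus not a measure of adipocyte number. The TN libraries with the lowest sums, TN WT 2 and TN HIF2α AKO 1, were also the lowest of their groups for Rbp4, Dhrs3, Aldh1a1 and Rarb and the highest for Stra6. The same 2 libraries had the highest sums of the 6 lymphocyte markers, 1176 and 1195 CPM. Ordered by the adipocyte sum, Rbp4 ran from 53.9 to 205 CPM without a step down in the 6 TN libraries, and again from 98.3 to 293 CPM in the 6 cold libraries. At the upper end, cold WT 3 had the highest adipocyte sum, the highest Rbp4 and Aldh1a1 and the lowest Aldh1a3. The 6 markers of progenitors and fibroblasts summed to between 2342 and 3033 CPM in the TN libraries and between 1525 and 2075 CPM in the cold libraries. The part of cell composition in the changes of Aldh1a1, Aldh1a2, Aldh1a3 and Rarb was not tested.

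**Figure D4:**
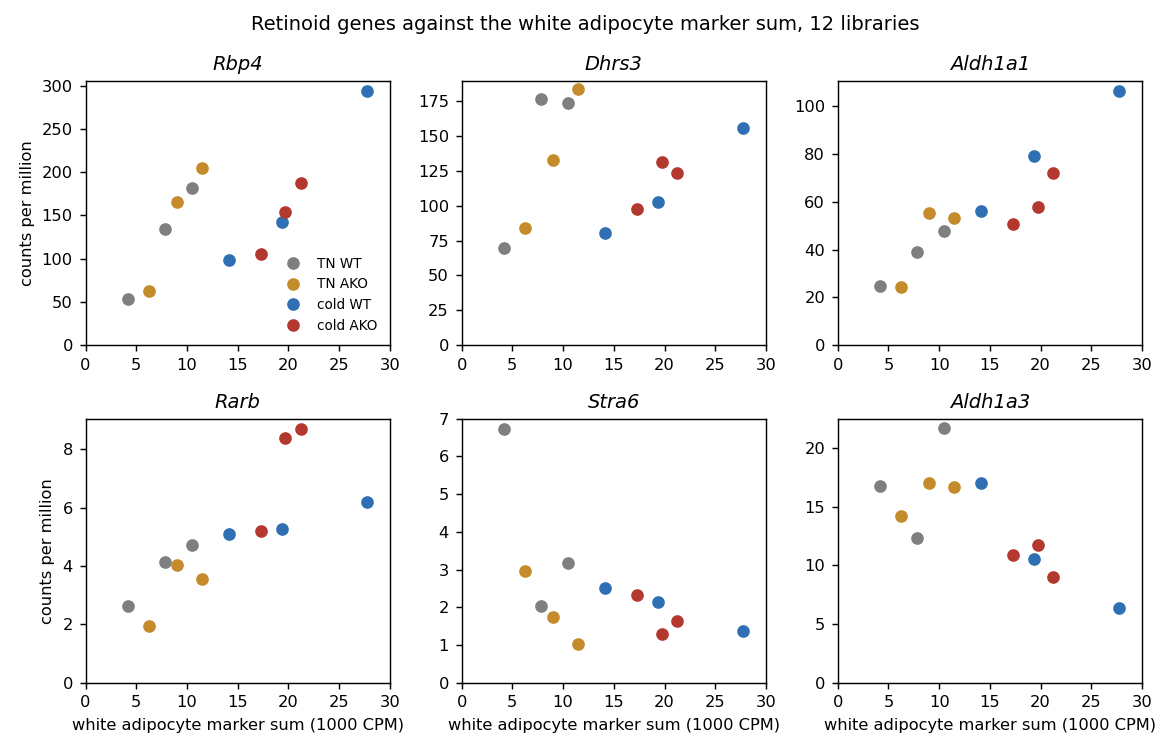
The horizontal axis is the summed CPM of 6 white adipocyte markers in units of 1000 CPM and the vertical axis the CPM of 1 gene per panel, with 12 libraries coloured by group. The panel of Rbp4 shows 2 separate rising series, of 6 TN and 6 cold libraries, Aldh1a1 runs from 24.3 to 106 CPM along the axis, and Aldh1a3 is at 6.36 CPM in the library with the highest sum.

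The wider retinoid pathway was examined as a list of 48 further genes, of which 34 passed the filter. The list was chosen with earlier results of these data known, so that its shares describe it and test nothing. It holds genes that also serve other lipids, among them Dgat1, Lipe, Scarb1 and Fabp5. Over both genotypes, 15 of the 34 rose upon cold exposure and 2 fell, with a median log2 fold change of 0.18. These were 44.1% higher and 5.88% lower, where 24.8% and 24% of all genes were called. In WT the counts were 14 higher and 0 lower, or 41.2% higher where 15.6% of all genes were. In HIF2α AKO they were 10 higher and 1 lower, or 29.4% and 2.94%, where 15.6% and 11.5% of all genes were. By genotype, 0 of the 34 passed edgeR's test at TN, in cold, over both temperatures or for the interaction, with 2 at an unadjusted p under 0.05 over both temperatures, where 3.64% of all genes were, and 0 in the rest, where 2.14 to 2.95% were.

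Among genes of uptake, esters and carotenoids, 4 of 8 tested genes rose and 1 fell, where 24.8% of all genes rose and 24% fell. Retsat, which saturates retinol to dihydroretinol, rose from a range of 33.1 to 75.0 CPM in the TN libraries to 196 to 357 CPM in cold, by 2.15 ± 0.20 (SE) on the log2 scale. Dgat1, which esterifies retinol as well as diacylglycerol, rose by 1.47 ± 0.18, and Lipe, the hormone-sensitive lipase that hydrolyses retinyl esters, by 0.79 ± 0.21. Scarb1, a scavenger receptor for carotenoids and lipoproteins, rose by 0.44 ± 0.09, whereas Bco2, which cleaves carotenoids, fell by 0.83 ± 0.21. Lrat, the main enzyme of retinol esterification in the liver and eye, lay between 0.4 and 2.1 CPM and did not pass the test. Among the carriers and binding proteins, 2 of 3 tested genes rose and 0 fell, where 24.8% of all genes rose and 24% fell. These were Rbp7, a retinol binding protein of adipocytes and endothelium, by 1.21 ± 0.23, and Fabp5, a fatty acid binding protein that can carry retinoic acid, by 1.84 ± 0.29.

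Of the dehydrogenases and reductases, 6 of 12 tested genes rose and 0 fell, where 24.8% of all genes rose and 24% fell. These enzymes oxidize retinol or reduce retinaldehyde. Dhrs9 rose by 2.79 ± 0.37 (SE) on the log2 scale, from 0.7 to 3.0 CPM in the TN libraries to 5.2 to 33.2 CPM in cold. Dhrs4 rose by 1.36 ± 0.15, Rdh13 by 1.25 ± 0.09, Rdh14 by 0.63 ± 0.08, Adh1 by 0.81 ± 0.20 and Adh5 by 0.49 ± 0.10. Each of these 6, picked because they were called, had every cold library above every TN library. How many of all genes did so was not counted. Of the receptors, 2 of 5 tested genes rose and 0 fell, against the same shares of all genes. Rxrg rose by 1.12 ± 0.16 and Rxra by 0.29 ± 0.11, whereas Rara, Rarg and Rxrb did not pass the test. Among genes known to respond to retinoic acid, 1 of 6 tested genes rose and 1 fell, against the same shares of all genes. Tgm2, a transglutaminase, rose by 0.55 ± 0.14, Rarres1 fell by 1.32 ± 0.35, and Rarres2, Nrip1 and Hoxa5 did not pass the test.

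**Figure D5:**
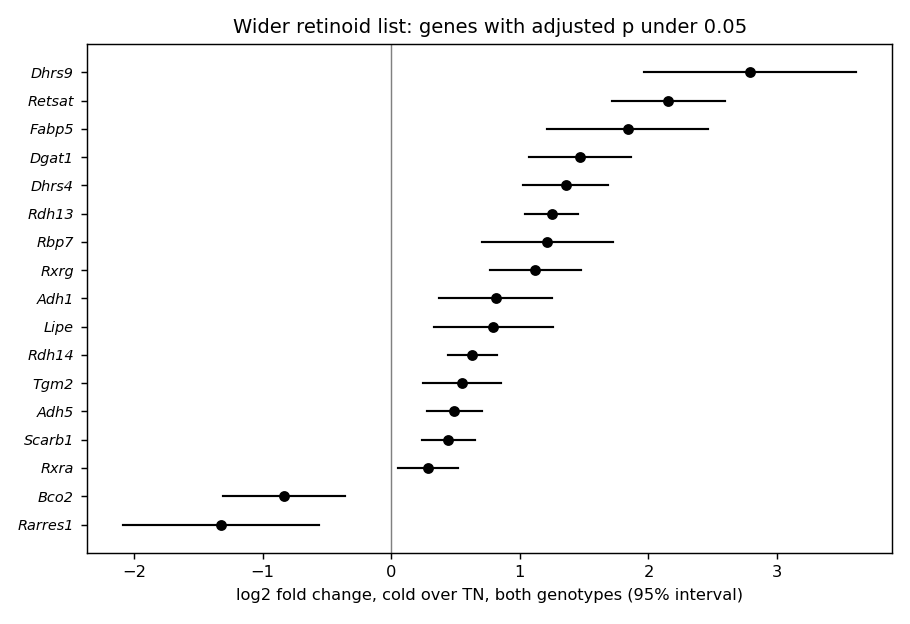
The horizontal axis gives the log2 fold change of cold over TN over both genotypes, with its 95% interval, for the 17 genes of the wider list with an adjusted p under 0.05. Circles mark the fitted values, from Rarres1 at -1.32 to Dhrs9 at 2.79, with 15 of the 17 above 0.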

How the data were processed

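The authors deposited raw read counts per gene for 12 iWAT libraries, 3 for each of 4 groups. Per the labels and the methods, reads were trimmed with Trim Galore 0.4.4, aligned to GRCm38 with STAR 2.6.1d and counted with HTSeq 0.13.5. The annotation, strand setting and read length are not given in the sources used here. The 5 tally rows outside genes, 21.9 to 27.0% of the reads listed, were left out. The filter on low counts was filterByExpr of edgeR 4.0.16 (R 4.3.3) at its count limit of 10 and total limit of 15. After TMM scaling, a quasi-likelihood fit of the 12 libraries took the 4 groups as its only term (biological coefficient of variation 0.202). Adjustment of p-values followed Benjamini and Hochberg over the 15306 genes kept. Further tools were DESeq2 1.42.0 and limma 3.58.1. The paper gives the number of mice per cage during exposure, but not which libraries shared a cage or litter. The p-values thus measure the spread between these mice. The steps were tested on simulated data. Pearson correlations of same-numbered libraries did not show that replicate numbers pair them.

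The members and the lists were chosen with earlier results of these data known. All 9 members were named whatever their test, and of the wider list those that passed it were named, with some that did not. Some genes of the list are not reported here. Bco1, Stra6l and Adgre1 were read under the older symbols Bcmo1, 1300002K09Rik and Emr1. Other genes were named after their values were seen. Alternatives were other scalings (RLE size factors, library size alone), no filter, DESeq2, limma voom with sample quality weights, a replicate block, fits of the 2 groups compared, the thresholds of the study and each library left out. CPM per kb used exon lengths of GENCODE M21.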

Additional observations from a re-analysis of the deposited data

How the results depend on the processing

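With 3 mice per group, the counts of members called in cold against TN moved easily. In WT, 1 member was called, against 2 with library size alone and with limma voom, 0 with the replicate block, 0 in edgeR on the 2 groups compared, and 0 to 2 when a library was left out. In HIF2α AKO, 1 was called, against 2 with library size alone, with limma voom and with edgeR or DESeq2 on the 2 groups compared, 0 in the 9 libraries left without muscle or epithelial transcripts (chosen after seeing the data), and 0 to 1 when a library was left out. Over both genotypes, 4 were called, against 5 with library size alone, 3 with limma voom (Aldh1a3 lost), 2 in those 9 libraries and 2 to 4 when a library was left out. The counts of 0 by genotype and interaction stayed at 0 under each alternative that kept the adjusted threshold of 0.05, whereas DESeq2 at the thresholds of the study picked Aldh1a1 and Rarb in cold. Aldh1a1 lost its WT call with the replicate block (1.11, adjusted p = 0.0519), in edgeR on the 2 groups (adjusted p = 0.0589) and without any of cold WT 1 or 3, TN WT 1 or 2, or cold HIF2α AKO 2 or 3, with values from 0.86 to 1.15 and adjusted p-values from 0.0510 to 0.157 in these 6 fits. Rarb in HIF2α AKO ranged from 0.97 to 1.43 when a library was left out (adjusted p-values from 0.0115 to 0.0668), and over both genotypes it kept its call in every setting run. When a library was left out, Aldh1a1 over both genotypes ran from 0.63 to 0.88 and missed the threshold without cold HIF2α AKO 1 or cold WT 3. In the other settings its value ran from 0.49 to 0.89 with the call kept. Aldh1a2 over both genotypes ranged from -0.47 to -0.35 and Aldh1a3 from -0.81 to -0.45 when a library was left out, and their calls were lost in 6 and 12 of 19 settings, with adjusted p-values up to 0.0651 and 0.212. Only same-numbered libraries were correlated (5 of 18 pairs above 0.1, from -0.43 to 0.39), which leaves pairing open. The replicate block changed no other call of a member.

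Directions turned only for effects that had passed no test in the model of 12 libraries. With library size alone, Rbp4 in HIF2α AKO was -0.21 and Cyp26b1 in HIF2α AKO -0.047. With limma voom, Rbp4 in HIF2α AKO was -0.020 and Rdh10 0.011 in WT, 0.056 in HIF2α AKO and 0.033 over both. In the 9 libraries, Rdh10 was 0.15 in HIF2α AKO and 0.029 over both, and Dhrs3 0.077 in HIF2α AKO. Leaving out a library, the cold effect of Rbp4 ran from -0.035 to 0.92 in WT and from -0.32 to 0.38 in HIF2α AKO. That of Cyp26b1 ran from -0.70 to 0.23 in WT, from -0.030 to 0.45 in HIF2α AKO and from -0.24 to 0.22 over both. In HIF2α AKO, Stra6 ran from -0.42 to 0.34, Rdh10 from -0.24 to 0.047 and Dhrs3 from -0.43 to 0.11. The effect of genotype over both temperatures on Rarb ran from -0.022 to 0.21. The cause of these shifts was not tested.

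Counts over all genes moved as well. In WT, 3259 genes were called, against 5888 with library size alone (1429 higher and 4459 lower, instead of 2389 and 870), 1752 in edgeR on the 2 groups, and 1381 to 3722 with a library left out, lowest without TN WT 2, cold WT 3 (1469) and TN WT 1 (1810). In HIF2α AKO, 4138 were called, against 6365 with library size alone (1516 higher and 4849 lower, instead of 2381 and 1757), 1834 in the 9 libraries, and 1613 to 4853 with a library left out, lowest without cold HIF2α AKO 1, TN HIF2α AKO 1 (1735) and TN HIF2α AKO 3 (2450). By genotype, 1 gene was called in each comparison, against 11 at TN, 7 in cold and 12 over both temperatures with DESeq2, and 2, 2 and 4 with limma voom. On the 2 groups compared, edgeR called 0 at TN and 0 in cold, and DESeq2 11 and 13. Reads per library were fewest for Stra6, Aldh1a2 and Rarb.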

Other observations

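The genes whose log2 CPM profile over the 12 libraries lay closest to that of a called member were looked up among 13889 genes with a mean of at least 1 CPM. The measure is the root mean square difference between profiles centred on their own means, and the libraries share depth and composition, so that it describes and tests nothing. For Aldh1a1, whose own profile has an SD of 0.62, the closest was E030003E18Rik at 0.111, followed by Gstz1, an enzyme of tyrosine breakdown, at 0.1502 and Bche, which encodes butyrylcholinesterase, at 0.160. E030003E18Rik is a long non-coding RNA that RefSeq places at chr19:20492715-20556410, within the span of Aldh1a1. It held 6.21 ± 1.45 CPM (SD, n = 3) in TN WT, 8.44 ± 3.36 in TN HIF2α AKO, 14.7 ± 4.58 in cold WT and 10.5 ± 0.883 in cold HIF2α AKO. Its cold effect was 1.24 ± 0.32 (SE) on the log2 scale in WT with an adjusted p of 0.0204 in edgeR's quasi-likelihood test, and 0.31 ± 0.32 in HIF2α AKO with an adjusted p of 0.476. The difference between the genotypes was -0.93 with an adjusted p of 1.00 in the same model. Since the 2 genes overlap, some reads of one may be counted on the other. E030003E18Rik was picked for its likeness to Aldh1a1, so that its p-values reflect that choice and add no support to Aldh1a1. For Rarb, with an SD of 0.61, the closest were 5730508B09Rik at 0.199, Ttc30b at 0.201 and Mapt, which encodes tau, at 0.204.

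Transcripts of 4 genes on the wider list, Rbp3, Rdh7, Sdr16c5 and Sdr16c6, were at 0 in all 12 libraries.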
